A study of Mus musculus with 24 samples.

Results

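The genes described here encode 8 peptide hormones of the gut, namely Sct, Pyy, Cck, Gcg, Gip, Ghrl, Sst and Tac1, and the 2 granins Chga and Chgb. They were chosen by symbol, and all 10 were found among the 36528 gene IDs measured and among the 15429 genes that had enough reads to be tested. The data are RNA-seq counts from 24 libraries of polyadenylated RNA, each made from primary organoids of mouse small intestine, which are cultures of intestinal epithelium grown outside the animal. Organoids were treated with dFz7-21, with Fz7-21S or with DMSO for 24 h or for 6 h, with 4 libraries in each of the 6 groups. By the series' own account dFz7-21 is a peptide inhibitor of Frizzled 7, which is a Wnt receptor, so the comparisons ask how that block changes gene expression. The labels give Fz7-21S by name alone, and they state no genotype, strain, age, dose or medium, nor whether the libraries of a group come from separate cultures or animals. The spread between libraries behind every p-value may therefore be technical.

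Enteroendocrine cells are scattered single cells of the gut epithelium that store peptide hormones in secretory granules and release them in response to food. They arise from crypt progenitors that switch on the transcription factor Neurog3, and as they mature and move away from the crypt many of them change which hormones they make. Wnt signals are strong in the crypt and BMP signals are strong in the villus, and in mouse gut BMP signals favour secretin and neurotensin over other hormones of the same lineages. Granins are acidic proteins of the granule itself and are shared by most enteroendocrine cells, whatever hormone they store.

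The libraries held 20.4 M to 33.1 M counts (median 25.1 M), and the 10 genes together took 0.0404% to 0.0689% of them. All 6 epithelial markers examined, Epcam and Cdh1 among them, had reads in every library, and Epcam ran from 1469 to 2492 CPM (counts scaled to library size with a TMM factor for each library). Defining markers of other sources of these peptides were at 0 in all 24 libraries: Ins1, Ins2 and Ppy of pancreatic islets, Sox10 of enteric glia and Cdh5 of endothelium. Of the 4 islet markers Iapp alone had reads, at no more than 1.70 CPM. The summed level of 9 enteric neuron markers, several of which epithelium also expresses, was 15.5 to 17.8 CPM in dFz7-21 at 24 h and 18.1 to 21.9 CPM in DMSO at 24 h. Mesenchymal transcripts stood out in 3 libraries. Their summed level over 10 markers was 924 CPM in replicate 3 of dFz7-21 at 24 h, and 194 and 139 CPM in replicates 1 and 2 of DMSO at 6 h, against 4.61 to 14.1 CPM in the others, with Dcn and Lum at 0 in every library. Replicate 4 of Fz7-21S at 24 h also stood apart from its group, with a median correlation of 0.974 to the other libraries of the group, against 0.993 for each of those. The tests of the 10 genes were also fitted without these libraries. Ratios to granin reads and the values of other gene lists are given with all libraries only. So are correlations between genes, except that of Chga with Chgb.

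The RefSeq stretches directly upstream of 5 of the genes are shown because these 5 were higher in dFz7-21 than in DMSO at 24 h. They are read from the gene's own strand on GRCm38.p6 and end just before the annotated gene, with 209 bases for Sct and 250 for each of the others. Capitals mark every match to the E-box CANNTG, the site class of basic helix-loop-helix factors such as Neurog3 and Neurod1, to the cAMP response element TGACGTCA and to the TATA box TATAAA.
Sct, chr7:141279175-141279383, minus strand: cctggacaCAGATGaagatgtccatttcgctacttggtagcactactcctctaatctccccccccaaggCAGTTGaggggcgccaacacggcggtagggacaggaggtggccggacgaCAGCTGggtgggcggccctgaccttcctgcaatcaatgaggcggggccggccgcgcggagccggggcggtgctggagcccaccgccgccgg
Pyy, chr11:102107833-102108082, minus strand: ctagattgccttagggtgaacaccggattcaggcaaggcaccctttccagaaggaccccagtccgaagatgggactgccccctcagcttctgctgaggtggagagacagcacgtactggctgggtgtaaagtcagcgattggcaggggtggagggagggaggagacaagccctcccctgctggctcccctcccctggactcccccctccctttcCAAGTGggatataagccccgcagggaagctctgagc
Tac1, chr6:7554811-7555060, plus strand: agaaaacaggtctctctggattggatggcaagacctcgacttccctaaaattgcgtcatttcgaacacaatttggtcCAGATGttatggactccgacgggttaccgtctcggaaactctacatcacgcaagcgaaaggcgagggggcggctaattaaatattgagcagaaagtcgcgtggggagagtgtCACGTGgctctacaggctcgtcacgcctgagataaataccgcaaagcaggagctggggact
Chga, chr12:102554691-102554940, plus strand: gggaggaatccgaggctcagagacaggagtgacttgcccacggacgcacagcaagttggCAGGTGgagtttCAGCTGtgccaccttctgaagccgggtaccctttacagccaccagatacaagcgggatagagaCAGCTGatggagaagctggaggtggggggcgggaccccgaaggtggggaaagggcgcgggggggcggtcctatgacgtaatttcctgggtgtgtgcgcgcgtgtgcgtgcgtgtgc
Chgb, chr2:132781392-132781641, plus strand: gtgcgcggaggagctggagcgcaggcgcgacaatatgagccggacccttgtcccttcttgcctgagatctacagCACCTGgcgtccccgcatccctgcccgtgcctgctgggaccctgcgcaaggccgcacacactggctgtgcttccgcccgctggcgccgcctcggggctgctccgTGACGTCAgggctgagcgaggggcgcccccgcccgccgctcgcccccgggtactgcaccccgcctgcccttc
The Sct stretch holds 3 E-boxes, with first bases 201, 140 and 91 bases before the gene, while Pyy holds a single one at 36 bases. Chga carries 3 E-boxes, and the letters CAGCTG occur in it at 179 and at 116 bases and once in Sct at 91 bases. Chgb has a full cAMP response element 72 bases before the gene.

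These matches were set against all 32851 RefSeq mouse windows of 250 bases before an annotated start, in which 6 motifs were searched. The 10 genes have 14 such windows, since Pyy has 2 starts in RefSeq and Ghrl has 4. The E-box was found in 12 of the 14 and in 66.2% of all windows, on either strand. The letters CAGCTG, on either strand, were found in 4 of the 14 and in 13.0% of all windows. CACCTG was found in 5 of the 14 and in 17.2% of all windows, and CATCTG in 4 of the 14 and in 14.4% of all windows. The cAMP response element was found in 2 of the 14, of Sst and Chgb, and in 1.55% of all windows. TATAAA on the gene's own strand was found in 2 of the 14, of Sct and Gcg, and in 7.59% of all windows; the Sct match lies inside the annotated gene, before an inner start. No matches of different motif families overlapped in the stretches shown. A match says only that the letters are there.

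On the scale that allows genes to be compared, RPKM (reads per kilobase of gene, scaled for depth, as deposited), Gcg was the most abundant of the 10 transcripts in all 6 groups and Chgb came next in all 6. Gcg encodes proglucagon, which L cells cut into GLP-1. Its mean was 133 ± 14.8 RPKM in dFz7-21 at 24 h, against 131 ± 13.2 RPKM in DMSO at 24 h (SD, n = 4 each), while Chgb averaged 71.0 RPKM in dFz7-21 and 55.5 RPKM in DMSO at that time. Ghrl, which encodes the appetite hormone ghrelin, was last in all 6 groups on this scale, at 1.56 RPKM in dFz7-21 and 1.38 RPKM in DMSO at 24 h. Between these ends the order changed with treatment. Sct was 4th in both dFz7-21 groups, at 31.9 RPKM at 24 h and 37.3 RPKM at 6 h, and 6th in both DMSO groups, at 11.5 RPKM at 24 h and 15.6 RPKM at 6 h. In dFz7-21 at 24 h the libraries of Sct overlapped in level with those of Cck above it and of Gip below it, and in DMSO at 24 h with those of Chga above it and of Sst below it. Gcg and Chgb did not overlap with their neighbours in this order, except that Chgb overlapped with Cck in Fz7-21S at 24 h. The order rests on the gene lengths behind the deposited RPKM, and these differ widely. In DMSO at 24 h Sct averaged 6.20 CPM and 11.5 RPKM, while Ghrl averaged 5.89 CPM and 1.38 RPKM. Whether those lengths are right was not examined, and the last place of Ghrl holds for RPKM alone. In CPM, which is not scaled for length, DMSO at 6 h averaged 9.16 for Ghrl, 8.38 for Sct, 6.29 for Pyy and 6.23 for Sst. DMSO at 24 h averaged 5.89 CPM for Ghrl and 1.86 CPM for Pyy. Chgb averaged 155 CPM and Gcg 145 CPM in the same group.

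**Figure D1:**
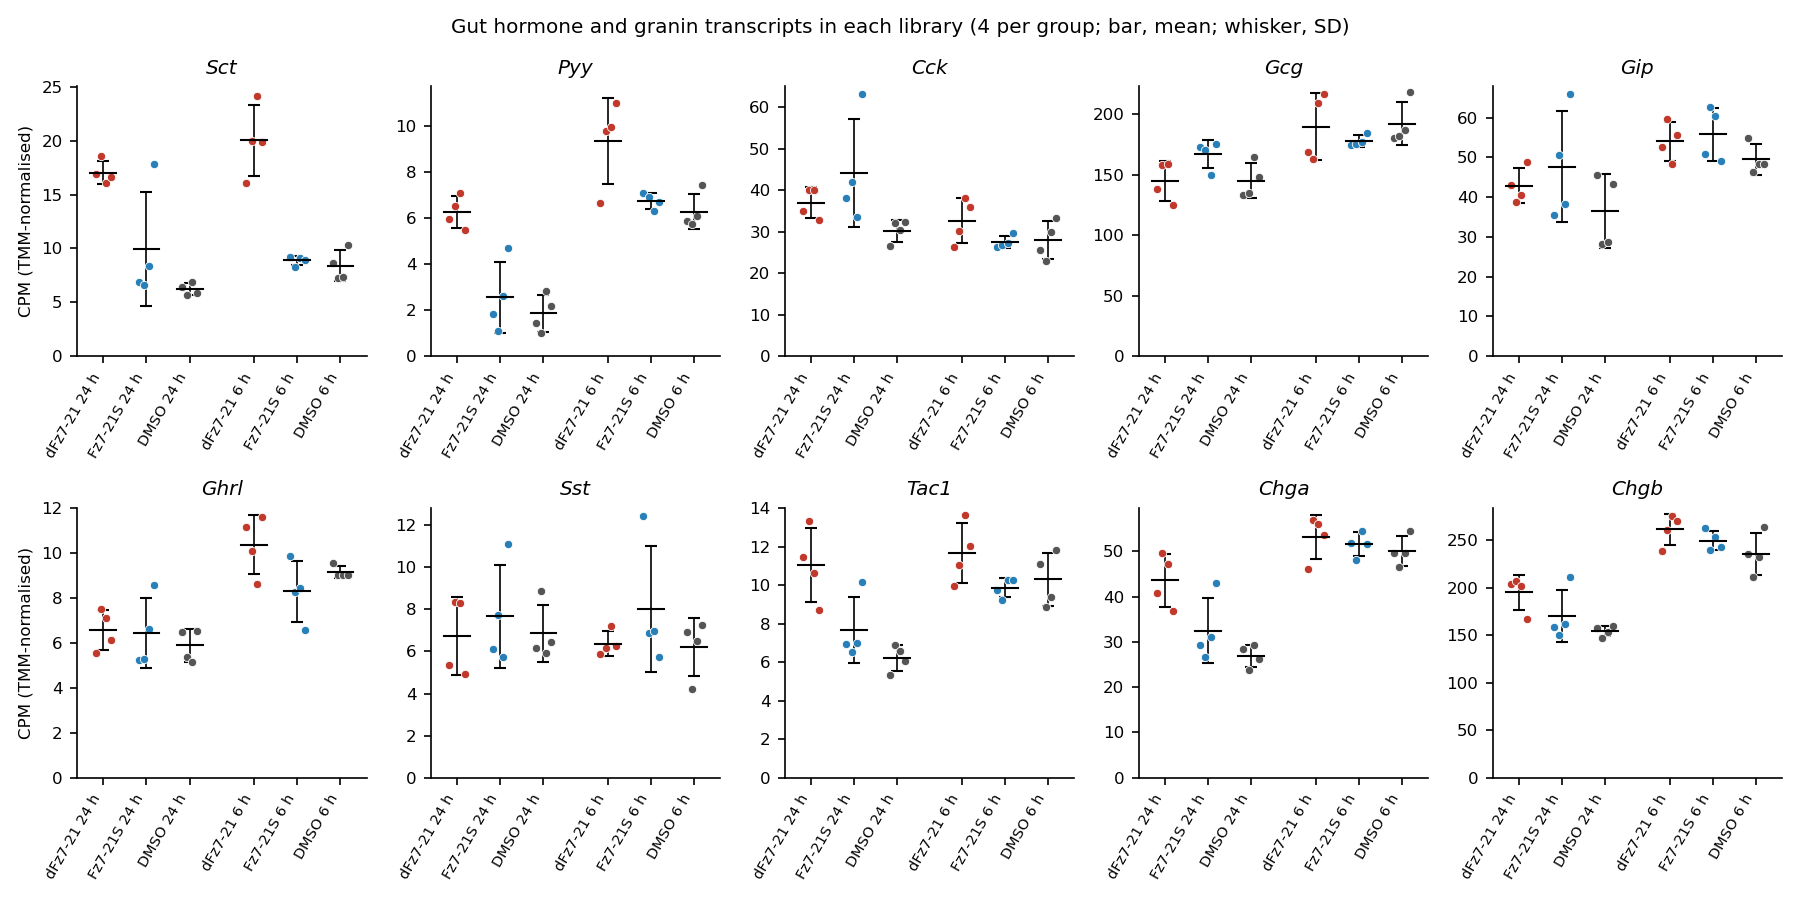
TMM-normalised CPM of the 10 genes in each of the 24 libraries (points), with the mean (bar) and SD (whisker) of the 4 libraries of a group; each panel has its own axis from 0. Sct sits at 16.1 to 18.6 CPM in dFz7-21 at 24 h, above the 5.66 to 6.91 CPM of DMSO, and replicate 4 of Fz7-21S at 24 h lies at 17.8 CPM, far from the rest of its group.

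At 24 h, dFz7-21 organoids held more secretin, PYY and tachykinin mRNA and more of both granin mRNAs than DMSO organoids, while cholecystokinin, proglucagon, GIP, ghrelin and somatostatin mRNA were not called. Of the 10 genes, 5 were higher and 0 were lower at a Benjamini-Hochberg adjusted p below 0.05 in edgeR's quasi-likelihood test, in a background where 35.9% of all genes tested were called and 18.2% were called higher. The median log2 fold change of the 10 was 0.31, and that of all genes tested was -0.0054. The libraries of the groups did not overlap for 6 of the 10, the 5 called genes and Cck, against 38.4% of all genes tested. In bulk RNA, more cells of a type and more RNA per cell cannot be told apart, and that holds for every difference below.

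Pyy, the gene of peptide YY, an L-cell hormone that slows gut transit and curbs appetite, showed the largest fold change of the 10. It had 5.98, 6.53, 7.09 and 5.499 CPM in dFz7-21 libraries, against 1.46, 0.9996, 2.82 and 2.18 CPM in DMSO libraries. All 4 dFz7-21 libraries lay above all 4 of DMSO, and over the 24 libraries the gene had 21 to 293 reads. The log2 fold change was 1.74 ± 0.29 (SE, adjusted p = 5.0e-05), or 3.33-fold.

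Sct encodes secretin, the hormone that makes the pancreas and bile ducts release bicarbonate when acid reaches the duodenum. Its values were 16.9, 18.6, 16.1 and 16.6 CPM in dFz7-21 libraries, against 6.39, 5.66, 6.91 and 5.85 CPM in DMSO libraries. The dFz7-21 libraries lay close together, with a mean of 17.0 ± 1.07 CPM (SD, n = 4), and did not overlap with DMSO, with a mean of 6.20 ± 0.56 CPM. The log2 fold change was 1.45 ± 0.21 (SE, adjusted p = 9.3e-06), or 2.74-fold.

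Tac1 encodes the precursor of substance P and neurokinin A, which serotonin-producing enterochromaffin cells make in the epithelium. It had 11.5, 13.3, 10.6 and 8.69 CPM in dFz7-21 libraries, against 5.35, 6.90, 6.57 and 6.06 CPM in DMSO libraries. The groups did not overlap, although the lowest dFz7-21 library was nearer to the DMSO libraries than to the highest of its own group. The log2 fold change was 0.83 ± 0.14 (SE, adjusted p = 6.9e-05).

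The granins showed smaller fold changes. Chga, the gene of chromogranin A, the common marker of enteroendocrine cells, had 40.8, 49.6, 47.2 and 36.8 CPM in dFz7-21 libraries, against 28.3, 23.7, 29.2 and 26.2 CPM in DMSO libraries. Chgb, the gene of chromogranin B, had 204, 208, 202 and 168 CPM in dFz7-21 libraries, against 158, 147, 154 and 160 CPM in DMSO libraries. Neither gene's groups overlapped, and in both replicate 4 was the lowest dFz7-21 library. The log2 fold change was 0.70 ± 0.11 for Chga (SE, adjusted p = 3.9e-05) and 0.34 ± 0.087 for Chgb (SE, adjusted p = 0.0036). Without the 3 libraries with mesenchymal transcripts the same 5 genes were called, with log2 fold changes of 1.67 for Pyy, 1.48 for Sct, 0.85 for Tac1, 0.66 for Chga and 0.32 for Chgb.

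The other 5 hormones were not called at 24 h. Cck, the gene of cholecystokinin, which triggers gallbladder emptying and pancreatic enzyme release, had 32.8 to 40.1 CPM in dFz7-21 and 26.5 to 32.3 CPM in DMSO. These ranges did not overlap, but the log2 fold change of 0.29 had an adjusted p of 0.138 and a 95% interval of -0.020 to 0.60. Cck was called when replicate 4 of Fz7-21S at 24 h, which is in neither group, was left out of the fit that sets the spread (0.31, adjusted p = 0.032), and in a fit of the 2 groups alone (0.30, adjusted p = 0.0050). The annotated range of Cck overlaps that of the RefSeq gene Gm38661, so its counts are uncertain without knowledge of strand. Whether their exons overlap was not examined.

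Gcg had 125 to 159 CPM in dFz7-21 and 133 to 164 CPM in DMSO, ranges that overlap almost wholly, with a log2 fold change of -0.0018 and a 95% interval of -0.19 to 0.19. That interval leaves out the changes fitted for Sct, Pyy, Tac1, Chga and Chgb. Gip, the gene of the K-cell hormone GIP, which raises insulin secretion after meals, had 38.8 to 48.8 CPM in dFz7-21 and 28.1 to 45.6 CPM in DMSO. Its log2 fold change was 0.23, with an interval of -0.11 to 0.57. Ghrl was at 0.16 (-0.15 to 0.47) and Sst, which encodes somatostatin, the inhibitor of most other gut hormones, at -0.017 (-0.51 to 0.48), and the libraries of both overlapped between the groups. The Sst interval is wide enough to hold the changes fitted for Chgb and Cck.

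**Figure D2:**
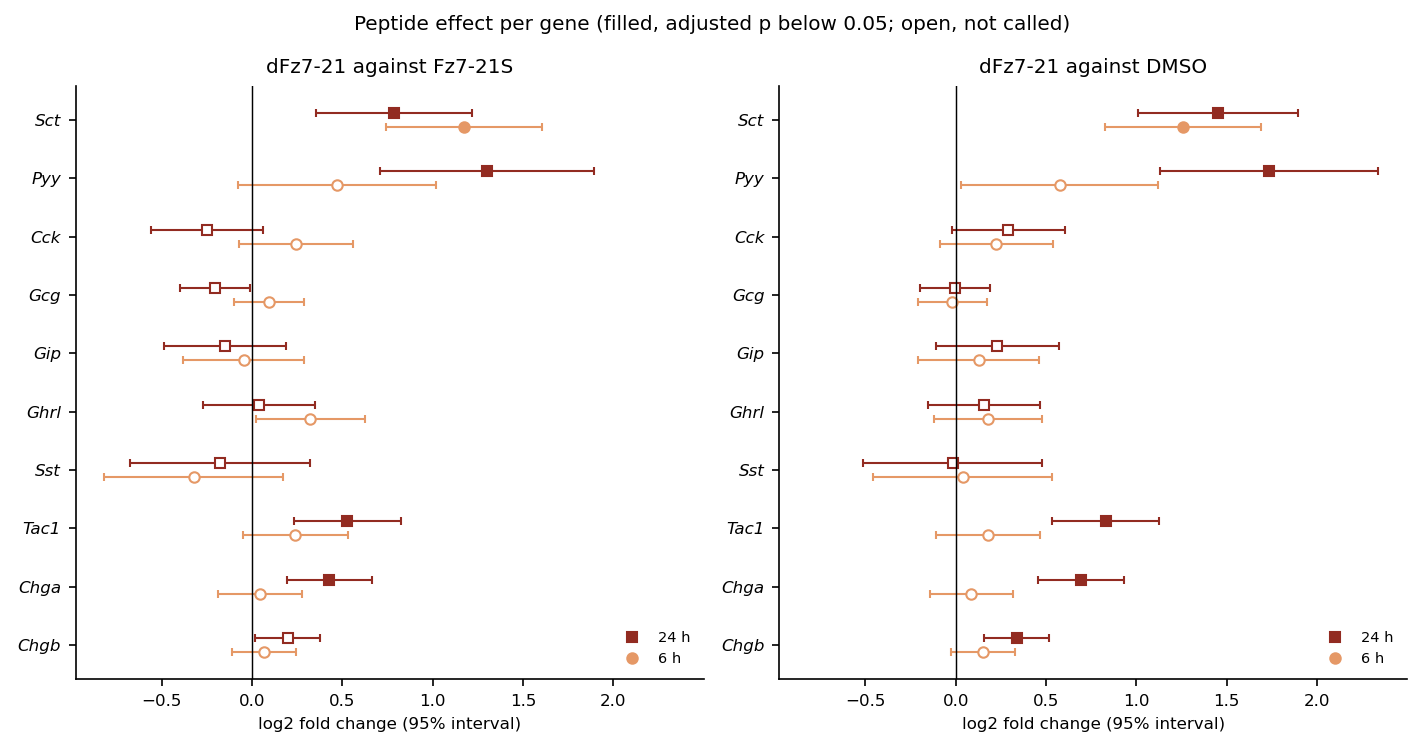
Log2 fold change of each gene in dFz7-21 against Fz7-21S (left) and against DMSO (right) at 24 h (squares) and 6 h (circles), with 95% intervals; filled symbols have an adjusted p below 0.05. At 6 h Sct alone is filled, and Sct, Pyy, Tac1 and Chga are filled at 24 h against both Fz7-21S and DMSO.

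At 6 h, Sct was the single member of the group that was called against DMSO, in a background of 11.0% of all genes tested (6.05% called higher). It had 16.1, 19.98, 24.1 and 19.9 CPM in dFz7-21 libraries, against 8.62, 7.23, 7.35 and 10.3 CPM in DMSO libraries. The groups did not overlap, and the log2 fold change was 1.26 ± 0.21 (SE, adjusted p = 0.00018), and 1.18 (adjusted p = 0.012) without the 3 libraries with mesenchymal transcripts. Its libraries were the only ones of the 10 genes that did not overlap at 6 h, against 24.5% of all genes tested. The median log2 fold change of the 10 was 0.16 and that of all genes tested was 0.010.

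Pyy at 6 h had 6.67, 9.81, 9.97 and 11.03 CPM in dFz7-21 libraries, against 5.87, 5.77, 6.10 and 7.43 CPM in DMSO libraries. Replicate 1 of dFz7-21 fell within the DMSO range, and the log2 fold change of 0.58 was not called (adjusted p = 0.186). A fit of those 8 libraries alone called it (0.56, adjusted p = 0.0048) and counted 2 of the 10 genes, against 24.9% of all genes tested in that fit. For the other 8 genes the log2 fold changes at 6 h lay between -0.018 for Gcg and 0.23 for Cck, and none was called.

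Against Fz7-21S at 24 h, 4 of the 10 genes were higher in dFz7-21 and 0 were lower, in a background of 33.7% of all genes tested (16.5% called higher). The log2 fold changes were 1.30 ± 0.29 for Pyy (adjusted p = 0.0011), 0.78 ± 0.21 for Sct (0.0053), 0.53 ± 0.14 for Tac1 (0.0061) and 0.43 ± 0.11 for Chga (0.0056). Chgb, at 0.20 (adjusted p = 0.083), was not called, although DESeq2 called it (0.23, adjusted p = 0.035). The others were not called either, at -0.25 for Cck, -0.21 for Gcg, -0.15 for Gip, 0.036 for Ghrl and -0.18 for Sst. Only the libraries of Pyy did not overlap, against 25.9% of all genes tested, with 1.82, 1.10, 2.60 and 4.69 CPM in Fz7-21S.

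Replicate 4 of Fz7-21S set the size of these differences. Sct had 16.1 to 18.6 CPM in the dFz7-21 libraries, against 17.8 CPM in that Fz7-21S library and 6.92, 6.59 and 8.39 CPM in the others. Tac1 had 10.2 CPM in that library and 6.54 to 6.98 CPM in the others of Fz7-21S, and Chga had 43.0 CPM in it and 26.6 to 31.0 CPM in the others. Without it the log2 fold changes were 1.77 for Pyy, 1.24 for Sct, 0.71 for Tac1, 0.61 for Chga and 0.34 for Chgb, and all 5 were called, each at an adjusted p of 0.00034 or less, in a background of 37.2%. Without the 3 libraries with mesenchymal transcripts the same 4 genes were called as with all libraries, at 1.24 for Pyy, 0.81 for Sct, 0.55 for Tac1 and 0.39 for Chga. A fit of the 2 groups alone, with that library kept, called Pyy and lost Sct (adjusted p = 0.112), Tac1 (0.090) and Chga (0.121); it called 16.0% of all genes tested.

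At 6 h against Fz7-21S, Sct was again the single gene called, in a background of 7.04% (3.21% called higher). It had 16.1 to 24.1 CPM in dFz7-21, against 9.19, 8.29, 9.11 and 8.92 CPM in Fz7-21S, and its log2 fold change was 1.17 ± 0.21 (SE, adjusted p = 0.00071). The 2 groups of 6 h libraries were fully apart for Sct and overlapped for the other 9 genes, while 21.6% of all genes tested had groups that did not overlap. A fit of those 8 libraries alone also called Pyy (0.47, adjusted p = 0.0052) and Ghrl (0.32, adjusted p = 0.039), and 21.7% of all genes tested. In the fit of all libraries the other 9 genes lay between -0.32 for Sst and 0.47 for Pyy.

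Between Fz7-21S and DMSO at 24 h edgeR called 0 of the 10, in a background of 0.259%. All 10 log2 fold changes were above 0, between 0.12 for Ghrl and 0.67 for Sct. Their median was 0.29, against 0.0088 for all genes tested. Of the 10, 6 had an unadjusted p below 0.05, and the share of all genes tested at that threshold is not given here. DESeq2 called 1, Cck (0.53, adjusted p = 0.049), and 0.881% of all genes tested. The Cck libraries, with 33.5 to 63.1 CPM in Fz7-21S and 26.5 to 32.3 CPM in DMSO, did not overlap; nor did those of 5.26% of all genes tested. Without replicate 4 of Fz7-21S the value for Sct was 0.23 in place of 0.67, and that for Pyy was -0.016 in place of 0.43. Without replicate 1 of Fz7-21S edgeR called 2, Sct (0.79, adjusted p = 0.043) and Cck (0.59, adjusted p = 0.042), in a fit that called 8.84% of all genes tested. At 6 h edgeR and DESeq2 called 0 of the 10, 0 had an unadjusted p below 0.05, and the background was 0.00648%, with values between -0.14 for Ghrl and 0.36 for Sst. Without the 3 libraries with mesenchymal transcripts edgeR again called 0 of the 10 at 6 h. Fz7-21S and DMSO are the references of the same dFz7-21 libraries, so the comparisons above share samples and are not independent of each other.

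Hormone and granin mRNA was lower at 24 h than at 6 h in DMSO organoids. Of the 10 genes, 7 fell and 0 rose with time, in a background where 52.2% of all genes tested were called and 24.9% were called lower. Libraries of the 2 times did not overlap for 8 of the 10, against 53.1% of all genes tested. Pyy fell most, to 1.86 ± 0.80 CPM at 24 h, against 6.29 ± 0.77 CPM at 6 h (SD, n = 4 each), a log2 fold change of -1.74 ± 0.29 (SE, adjusted p = 2.2e-05). Chga followed at -0.89 and Tac1 at -0.73, then Ghrl at -0.64, Chgb at -0.61, Gip at -0.44 and Gcg at -0.40. Of these the call of Gip was lost when replicate 1 of DMSO at 6 h, or replicate 2 or 3 of DMSO at 24 h, was left out (adjusted p up to 0.114). It was also lost with no filter on low counts (0.063), in a fit of the 8 DMSO libraries alone (0.076) and without the 3 libraries with mesenchymal transcripts (0.115), of which 2 are DMSO libraries at 6 h. Without those 3 the other 6 genes were still called, Pyy at -1.84, Chga at -0.95, Tac1 at -0.78, Chgb at -0.69, Ghrl at -0.61 and Gcg at -0.49, in a background of 41.9%. Sct, at -0.43, had groups that did not overlap and was not called (adjusted p = 0.101), but it was called without replicate 4 of Fz7-21S at 24 h (-0.44, adjusted p = 0.0021) and in a fit of the 8 DMSO libraries alone (-0.43, adjusted p = 0.0089). Cck and Sst showed 0.11 and 0.14.

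Under dFz7-21, 4 of the 10 fell with time and 0 rose, in a background of 59.9% (30.1% called lower). Ghrl fell by 0.65, Chgb by 0.42, Gcg by 0.39 and Chga by 0.28 on the log2 scale, the last with an adjusted p of 0.032. The call of Chga was lost when any of 5 dFz7-21 libraries was left out, with values down to -0.19. Pyy, at -0.58, was not called (adjusted p = 0.065), but it was called without replicate 1 of dFz7-21 at 6 h (-0.70, adjusted p = 0.040) and without replicate 2 (0.040) or 4 (0.023) of Fz7-21S at 24 h. Tac1 showed -0.081 and Sct -0.23. The 2 times did not overlap for 3 of the 10, against 60.7% of all genes tested. Cck showed 0.18, Gip -0.33 and Sst 0.083. Without the 3 libraries with mesenchymal transcripts the same 4 were called, Ghrl at -0.69, Chgb at -0.44, Gcg at -0.44 and Chga at -0.33, in a background of 55.9%. A fit of the 8 dFz7-21 libraries alone called 7 of the 10, and 68.6% of all genes tested in that fit.

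Under Fz7-21S, 5 of the 10 fell and 1 rose, in a background of 59.1% of all genes tested (28.1% called lower and 31.0% called higher). Pyy was at -1.41, Chga at -0.67, Chgb at -0.55, Tac1 at -0.37 and Ghrl at -0.37, and Cck, the gene that rose, had 33.5 to 63.1 CPM at 24 h against 26.4 to 29.7 CPM at 6 h (0.68, adjusted p = 0.00052). Without replicate 4 of Fz7-21S at 24 h the value for Cck was 0.45 (adjusted p = 0.0041), and Gip was called as well (-0.43, adjusted p = 0.032). The 2 times did not overlap for 4 of the 10, against 49.8% of all genes tested. The calls of Tac1 and Ghrl were each lost when any of 5 Fz7-21S libraries was left out, with adjusted p up to 0.142. Gcg was at -0.090, Gip at -0.23 and Sst at -0.062. Sct was at -0.28 without replicate 4 at 24 h and at 0.16 with it, with an adjusted p above 0.05 both times. The 3 time courses share no library, and whether they differ was tested for dFz7-21 and DMSO alone.

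**Figure D3:**
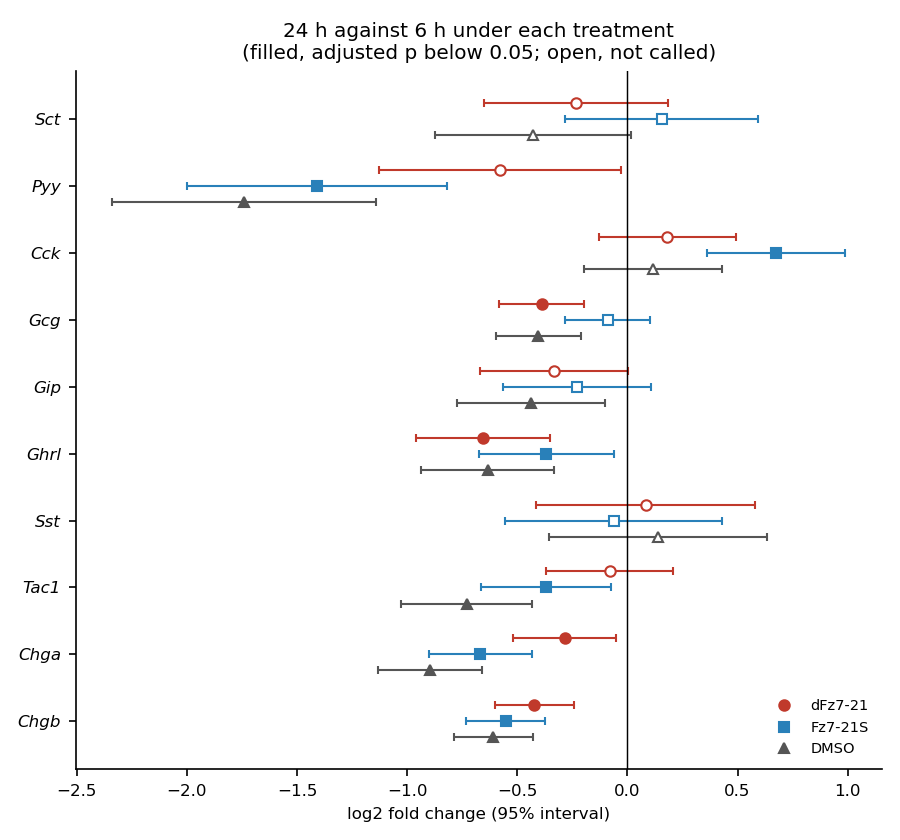
Log2 fold change of each gene between the 2 times (24 h over 6 h) under dFz7-21 (circles), Fz7-21S (squares) and DMSO (triangles), with 95% intervals; filled symbols have an adjusted p below 0.05. For Pyy, Tac1, Chga and Chgb the dFz7-21 symbol lies nearest to 0 and the DMSO symbol farthest from it.

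That test, the interaction of treatment and time, asks whether the effect of dFz7-21 against DMSO was larger at 24 h than at 6 h. It called 2 of the 10 genes, in a background of 13.2% of all genes tested (7.37% with a larger value at 24 h, as for both). For Chga the effect was 0.70 at 24 h and 0.086 at 6 h, a difference of 0.61 ± 0.16 on the log2 scale (SE, adjusted p = 0.011). For Tac1 it was 0.83 at 24 h and 0.18 at 6 h, a difference of 0.65 ± 0.20 (SE, adjusted p = 0.031). The Tac1 call was lost without replicate 1 or 2 of dFz7-21 at 6 h, replicate 1 or 4 of DMSO at 6 h, replicate 2 of dFz7-21 at 24 h, or replicate 1 or 4 of DMSO at 24 h, with adjusted p up to 0.076. It was also lost without the 3 libraries with mesenchymal transcripts (0.71, adjusted p = 0.055). The difference for Pyy, 1.16 ± 0.39, was larger but less certain (adjusted p = 0.052), and DESeq2 called it (1.18, adjusted p = 0.017), as did edgeR without replicate 1, 2 or 4 of Fz7-21S at 24 h or replicate 3 of DMSO at 24 h. For Sct it was 0.19 with an interval of -0.42 to 0.80, so its effect at 24 h was not told apart from that at 6 h. The other 6 genes lay between -0.055 for Sst and 0.19 for Chgb.

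Hormone reads were also set against the granin reads of the same library, a measure chosen after the data had been seen, and the granins themselves were higher in dFz7-21 at 24 h. In dFz7-21 libraries at 24 h there were 6.89, 7.21, 6.46 and 8.14 Sct reads per 100 reads of Chga and Chgb together, against 3.43, 3.32, 3.78 and 3.15 in DMSO libraries. Pyy had a geometric mean of 2.63 reads per 100 granin reads in dFz7-21 and 0.954 in DMSO, and Tac1 had 4.58 in dFz7-21 and 3.41 in DMSO. None of these groups overlapped. Gcg lay on the other side, with 60.6 reads per 100 granin reads in dFz7-21 and 79.8 in DMSO, and its groups did not overlap either. At 6 h Sct had 6.31 reads per 100 granin reads in dFz7-21 and 2.91 in DMSO, and Pyy had 2.93 in dFz7-21 and 2.20 in DMSO, with no overlap, though for Pyy the nearest libraries almost met. Each of these 6 differences had the smallest p that a two-sided exact permutation test of 4 against 4 libraries allows, 0.0286. So did 24 of the 72 ratio tests, among them Gcg in Fz7-21S against DMSO at 6 h. That design left 0 of the 72 ratio tests past the threshold after adjustment, the lowest adjusted p being 0.0857. Against Fz7-21S the ratios overlapped for Sct at 24 h (permutation p = 0.0857) and for Pyy at 6 h (0.0571). They did not overlap for Sct at 6 h, or for Pyy, Tac1 and Gcg at 24 h. Within the granins, there were 22.2 Chga reads per 100 Chgb reads in dFz7-21 and 17.3 in DMSO at 24 h, as geometric means.

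**Figure D4:**
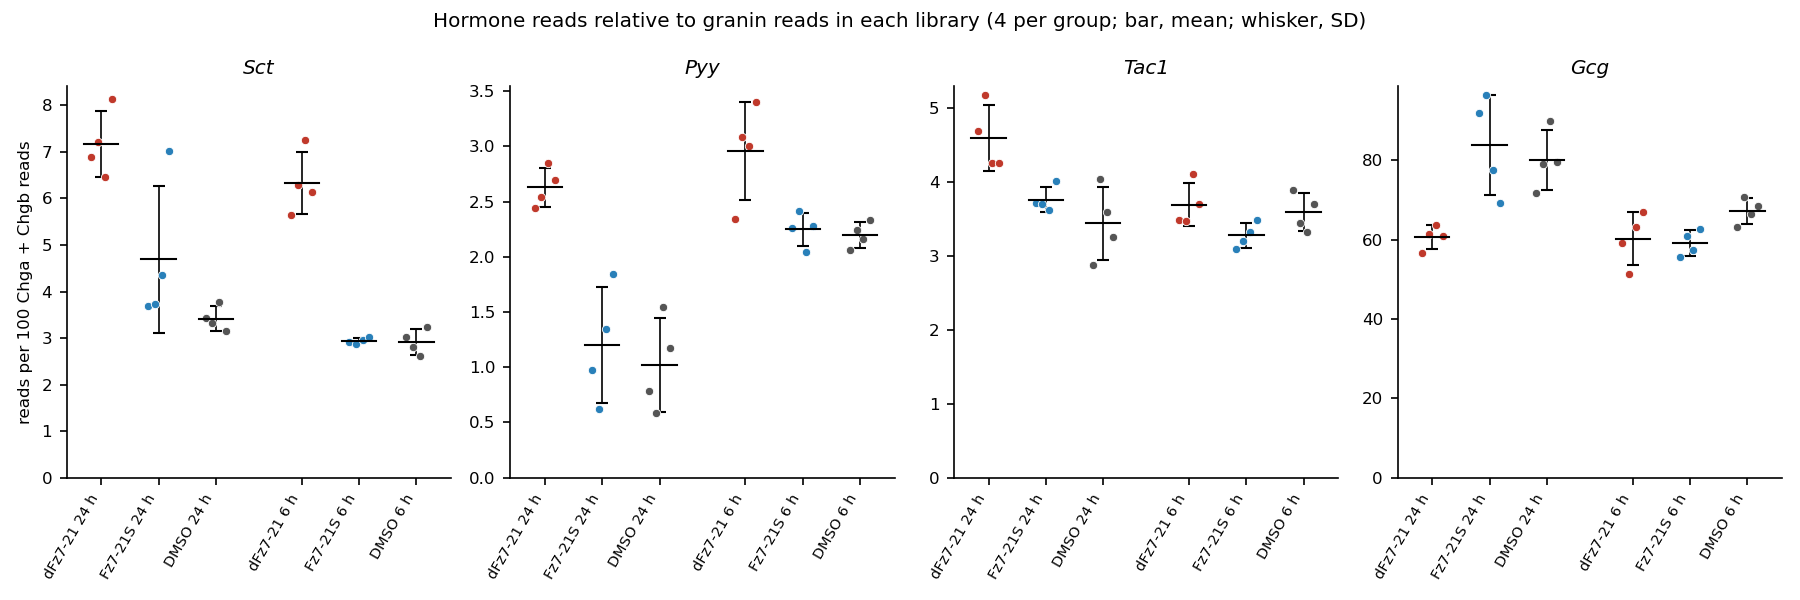
Reads of Sct, Pyy, Tac1 and Gcg per 100 reads of Chga and Chgb together in each of the 24 libraries (points), with the mean (bar) and SD (whisker) of each group of 4; each panel has its own axis from 0. At 24 h the dFz7-21 libraries lie above those of DMSO for Sct, Pyy and Tac1 and below them for Gcg.

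Of 22 transcription factors of the enteroendocrine lineage 21 were tested, and 10 were lower and 1 was higher in dFz7-21 than in DMSO at 24 h, with a median log2 fold change of -0.60, against -0.0054 for all genes tested. The share called among all genes tested was 35.9% at that time. Neurog3, the factor that commits progenitors to this lineage, averaged 7.12 ± 0.98 CPM in dFz7-21 and 28.4 ± 3.01 CPM in DMSO (SD, n = 4 each), a log2 fold change of -1.997 ± 0.096 (SE, adjusted p = 1.4e-13). Sox4, which acts upstream of or beside Neurog3 in secretory progenitors, was at -1.35, Foxa2, a forkhead factor, at -1.16, and Insm1, a zinc finger factor of early endocrine cells, at -0.96. The gene that was higher was Pax6 (0.71, adjusted p = 0.020), a factor of differentiated endocrine cells, at 2.20 CPM in dFz7-21 and 1.33 CPM in DMSO. At 6 h 0 were higher and 3 were lower, against 11.0% of all genes tested, namely Foxa2 (-0.65), Sox4 (-0.59) and Neurog3 (-0.39). Pax6 was named here after its value had been seen. Stem cell markers moved with this: Lgr5, Olfm4 and Ascl2 summed to 53.8 to 106 CPM in dFz7-21 at 24 h and to 1257 to 1800 CPM in DMSO at 24 h. The part of that difference in the hormone result was not tested.

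Among 23 genes of other gut peptides and amines, 9 were tested, and 2 were higher and 0 lower at 24 h, where 18.2% of all genes tested were called higher. Tph1, the rate-limiting enzyme of serotonin synthesis in enterochromaffin cells, averaged 7.72 ± 0.97 CPM in dFz7-21 and 5.02 ± 0.40 CPM in DMSO (SD, n = 4 each), a log2 fold change of 0.62 (adjusted p = 0.00031). Ddc, the next enzyme of that pathway, which enterocytes also express, was at 0.36 (adjusted p = 0.00011). At 6 h, where 6.05% of all genes tested were called higher, 2 of the 9 were called. Tph1 was higher by 0.79, at 15.3 CPM in dFz7-21 and 8.84 CPM in DMSO, and Calcb, a calcitonin gene-related peptide gene, by 0.62, at 22.6 CPM in dFz7-21 and 14.7 CPM in DMSO.

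Of 23 genes of prohormone processing and granule release 22 were tested at 24 h, and 2 were higher and 4 lower, with a median of 0.091. That is a smaller share than the 35.9% called among all genes tested. The higher ones were Ptprn, a granule membrane protein (0.93), and Syt7, a calcium sensor of exocytosis, at 23.9 CPM in dFz7-21 and 14.2 CPM in DMSO (0.75, adjusted p = 8.6e-06). The lowest was Cplx2, a complexin that binds the fusion machinery, at 5.63 CPM in dFz7-21 and 12.6 CPM in DMSO (-1.16, adjusted p = 1.1e-07). At 6 h Syt7 (0.49) and Stx1a, a syntaxin (0.34), were higher and 0 of the 22 were lower. At that time 11.0% of all genes tested were called and 6.05% were called higher.

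Receptors of the 10 gene products were mostly too low to test. Of 20 receptor genes 5 were tested at 24 h, and Sstr1, a somatostatin receptor, was higher (1.201, adjusted p = 0.0033), at 1.28 CPM in dFz7-21 and 0.545 CPM in DMSO. That was 1 of the 5, where 18.2% of all genes tested were called higher. Of 16 nutrient sensors 9 were tested and edgeR called 0 of them against DMSO at 24 h and 0 at 6 h. At an unadjusted p below 0.05 there were 3 of the 9 at 24 h and 1 at 6 h, and the share of all genes tested at that threshold is not given here. The markers Neurod1, Pax6, Isl1, Syp, Pcsk1 and Scg3, which most enteroendocrine cells share, summed to 17.1 to 20.7 CPM in dFz7-21 at 24 h and to 18.2 to 20.7 CPM in DMSO at 24 h. Their summed level overlapped between these 24 h groups while that of the granins did not. Pcsk1 weighed most in the sum, with a median of 10.1 CPM over the 24 libraries, against 3.52 CPM for Neurod1. Pax6, also among them, was itself called higher at 24 h. At 6 h the sum was 26.3 to 30.1 CPM in dFz7-21, 24.2 to 26.7 CPM in DMSO and 21.8 to 24.0 CPM in Fz7-21S. It thus overlapped with DMSO at 6 h and not with Fz7-21S.

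**Figure D5:**
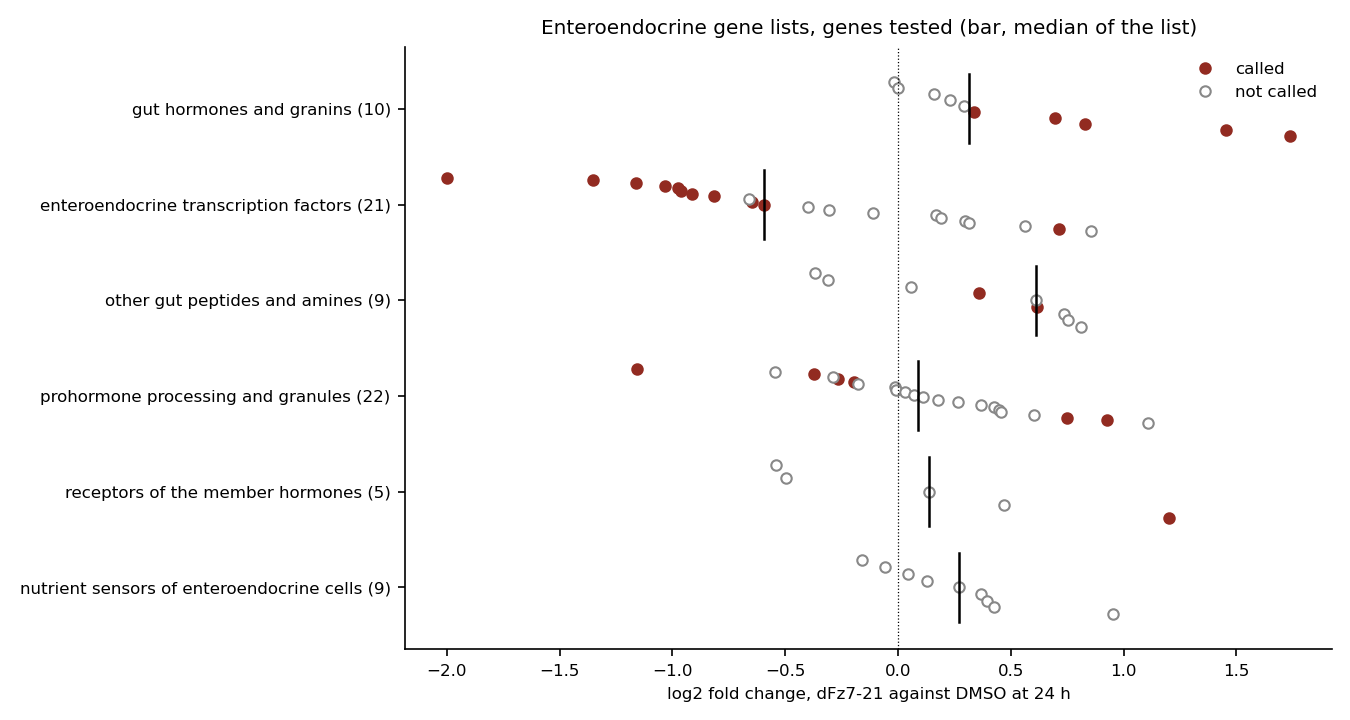
Log2 fold change in dFz7-21 against DMSO at 24 h for every tested gene of 6 lists (number tested in brackets); filled points have an adjusted p below 0.05, open points do not, and the bar is the list's median. Of the 10 hormones and granins 8 lie above 0, with a median of 0.31, and the transcription factors have a median of -0.60.

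Across the 24 libraries the hormones fell into patterns that named genes outside the list also followed. The nearest match of Chga was Chgb, with a Pearson correlation of log2 CPM of 0.96, followed by Pyy at 0.95. With the group means subtracted, which leaves the differences among libraries of a group, Chga and Chgb still had the highest correlation of any pair of the 10 genes, 0.88. The 45 pairs then ran from -0.19 to 0.88, and without replicate 4 of Fz7-21S at 24 h the value for Chga and Chgb was 0.81. Over the 24 libraries Sct was most like Dok4 and Mid1ip1, at 0.94 each, Tac1 like Selenow at 0.92, Chgb like Krt8 at 0.97 and Pyy like Chga. The nearest matches were Hacd1 at 0.89 for Gip, Bcam at 0.89 for Ghrl, Eapp at 0.86 for Cck, Tmem120b at 0.82 for Gcg and Neil2 at 0.63 for Sst. With the group means subtracted the nearest match was at 0.96 for Sct (Eif3h) and at 0.75 for Sst (Pdzk1ip1). All of these values come from the same libraries, with the depth and the makeup of each library in common, and describe likeness alone.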

How the data were processed

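Per the labels' protocols, RNA came from an RNeasy Micro kit, and polyadenylated RNA was sequenced. The submitters' processing notes name GSNAP and GRCm38. Per the file headers, the authors deposited for each gene the count of reads aligned uniquely to the gene model and an RPKM value adjusted by size factors. The strand setting and the counting tool were not given in the sources used here. In every library RPKM was a fixed multiple of the count for each gene, so RPKM was used for the order of levels between genes and counts for all tests.

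Libraries were grouped by the treatment and time of their labels. Gene IDs were matched to RefSeq symbols of GRCm38.p6 (31049 of 36528); IDs with no symbol held 2.55% to 3.51% of the counts. Counts were normalised by TMM and fitted with edgeR 4.0.16 (R 4.3.3, robust quasi-likelihood, filter on low counts by group) in 1 fit of all 24 libraries, with Benjamini-Hochberg adjustment over 15429 genes and calls at an adjusted p below 0.05. The procedure was tested on simulated data. Alternatives were DESeq2 1.42.0, RLE size factors, no filter, the compared groups alone, a replicate block, and fits without each library or without libraries that stood apart. Ratios to granin reads were compared by two-sided exact permutation tests (scipy 1.17.1). Promoter sequences are RefSeq's, of GRCm38.p6.

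The 10 genes, the other lists and the tests were chosen with earlier results of these data known. All 10 were reported in each comparison, by value or within a range. From each other list the genes called against DMSO were named, up to 4 by smallest p at either time, and for likeness the gene with the highest correlation to each of the 10. Replicate libraries differed by more than sampling noise, with a chi-square per degree of freedom of 2.86 to 96.1. None was therefore taken as the same library sequenced again. That measure cannot show whether the libraries of a group come from separate cultures or animals.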

Additional observations from a re-analysis of the deposited data

Results flagged for a closer look

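In Fz7-21S at 24 h, replicate 4 lay far from the other libraries for Sct, with 17.8 CPM against 6.59 to 8.39 CPM, and for Tac1, with 10.2 CPM against 6.54 to 6.98 CPM. In dFz7-21 at 24 h, replicate 4 had 168 CPM of Chgb, below the 202 to 208 CPM of the others. In DMSO at 6 h, replicate 1 had 9.58 CPM of Ghrl, against 9.01 to 9.03 CPM in the others, a gap that is small in size but wide beside the spread of the other 3. These 4 were found among 60 groups of 4 libraries by Dixon's test, in which chance gives about 1 in 20. Replicate 4 of Fz7-21S at 24 h also had the lowest correlation within its own group, and the other values of that library for these genes are given with the comparisons.

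The effect of dFz7-21 against DMSO differed between 24 h and 6 h for Tac1, by 0.65 on the log2 scale, and for Chga, by 0.61, in edgeR's test of the interaction. The Tac1 call was lost in 7 of the fits with 1 library left out, with edgeR adjusted p up to 0.076. It was also lost without the 3 libraries with mesenchymal transcripts (edgeR adjusted p = 0.055). The Chga call changed in 0 of the fits with 1 library left out.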

How the results depend on the processing

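The 5 genes called in dFz7-21 against DMSO at 24 h, and Sct at 6 h against DMSO and against Fz7-21S, were called in every alternative. In fits of the compared groups alone, 2 of the 10 genes were called against DMSO at 6 h, 1 against Fz7-21S at 24 h, 3 against Fz7-21S at 6 h and 7 for time under dFz7-21, where those fits called 24.9%, 16.0%, 21.7% and 68.6% of all genes tested. DESeq2 called 1 for Fz7-21S against DMSO at 24 h. Leaving out 1 library at a time, or the 4 that stood apart, which was chosen after the data had been seen, gave 0 to 2 calls for Fz7-21S against DMSO at 24 h and 1 to 4 for the interaction; without the 3 libraries with mesenchymal transcripts the interaction had 1. The cause was not tested.

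The replicate block raised the interaction count to 3 by adding Pyy (1.21, adjusted p = 0.027) and changed no other call. Deviations of same-numbered libraries correlated between -0.52 and 0.32, and 5 of 60 pairs passed 0.1. Both extremes came from DMSO at 6 h against dFz7-21 at 24 h, the groups that hold the libraries with mesenchymal transcripts. With 4 libraries in each group these values cannot show whether the numbers pair the libraries, and the labels state no pairing.

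Signs turned in 98 of 3100 values, none of them called in either fit. For Gcg in dFz7-21 against DMSO at 24 h the values were 0.016 by DESeq2 and by RLE, 0.0057 with no filter, 0.0055 with the 2 groups alone and 0.0029 with the replicate block, and Sst was 0.0020 by RLE. For Ghrl the interaction was 0.0041 with no filter and 0.0033 with the compared groups alone. Without the 3 libraries with mesenchymal transcripts, Fz7-21S against DMSO at 6 h gave -0.0027 for Pyy and -0.017 for Chga, time in DMSO -0.014 for Sst and -0.068 for Cck, time in dFz7-21 -0.033 for Sst, dFz7-21 against Fz7-21S at 24 h -0.0035 for Ghrl, and dFz7-21 against DMSO at 6 h -0.11 for Sst.

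With 1 library left out at a time, or the 4 that stood apart, dFz7-21 against DMSO ran from -0.036 to 0.080 for Gcg and -0.12 to 0.12 for Sst at 24 h, and from -0.11 to 0.052 for Gcg and -0.12 to 0.12 for Sst at 6 h. Against Fz7-21S the ranges were -0.24 to 0.10 for Gip, -0.026 to 0.22 for Ghrl and -0.28 to 0.074 for Sst at 24 h, and -0.10 to 0.0088 for Gip at 6 h. Fz7-21S against DMSO gave -0.016 to 0.71 for Pyy, -0.045 to 0.20 for Ghrl and -0.071 to 0.30 for Sst at 24 h. At 6 h it gave -0.00020 to 0.20 for Sct, -0.0083 to 0.20 for Pyy, -0.20 to 0.080 for Cck, -0.13 to 0.016 for Tac1 and -0.021 to 0.087 for Chga. Time gave -0.078 to 0.21 for Cck and -0.026 to 0.22 for Sst in DMSO, -0.020 to 0.23 for Sst and -0.17 to 0.039 for Tac1 in dFz7-21, and -0.28 to 0.29 for Sct and -0.30 to 0.23 for Sst in Fz7-21S. The interaction gave -0.032 to 0.25 for Cck, -0.055 to 0.11 for Gcg, -0.0010 to 0.26 for Gip, -0.081 to 0.083 for Ghrl and -0.15 to 0.098 for Sst.

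Depth limits Pyy, Sst and Ghrl most, with 21 to 293, 107 to 268 and 113 to 308 reads per library.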

Other observations

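Against Fz7-21S at 24 h, 3 of the 9 nutrient sensors tested were higher in dFz7-21 and 1 was lower, where 33.7% of all genes tested were called. Ffar1, a receptor of long-chain fatty acids, had a log2 fold change of 1.18 (adjusted p = 0.032 by edgeR), Abcc8, a subunit of the ATP-sensitive potassium channel, at 0.49, and Lpar5, a lysophosphatidic acid receptor, at 0.30. Ffar4, another receptor of long-chain fatty acids, was at -0.30. These 4 were named after their values had been seen. For Fz7-21S against DMSO edgeR called 0 of the tested genes of the 5 other lists at 24 h and 0 at 6 h. At an unadjusted p below 0.05 there were 11 at 24 h and 2 at 6 h, and the share of all genes tested at that threshold is not given here.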
